A study of Mus musculus with 6 samples.

Results

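The genes described here are 9 members of the glucose-handling machinery of GLUTag cells, a mouse line of glucagon-producing enteroendocrine cells. They were chosen by symbol from the 54281 genes of the count table, by no threshold on their values, and each symbol matched 1 row. They are the sodium-coupled glucose transporter Slc5a1 (SGLT1), the facilitative hexose transporters Slc2a1, Slc2a2, Slc2a3 and Slc2a5 (GLUT1, GLUT2, GLUT3 and GLUT5), the hexokinases Hk1 and Hk2, and the ATP-sensitive potassium (KATP) channel subunits Kcnj11 (Kir6.2, the pore) and Abcc8 (SUR1, the sulphonylurea receptor). The data are 6 libraries of polyadenylated RNA sequenced from transcript 3′ ends, 3 wells of plate 1 (passage 23) and 3 wells of plate 2 (passage 27). All wells carried the same line under 1 condition, with no treatment, knockout or control group: low-glucose DMEM with 1 g/L glucose, GlutaMAX and 10% FBS, on 0.4% Matrigel, for 48 h before harvest. Plate and passage changed together and cannot be told apart. GLUTag is a single line, derived from a colon tumour of a mouse that carried the SV40 large T antigen under a glucagon gene promoter, and no primary cells are compared with it here. Nothing in the labels says that wells of a plate came from separate cultures, so p-values measure the spread between these wells.

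Glucose can enter an enteroendocrine cell with sodium through SGLT1, a step that carries positive charge into the cell, or down its gradient through the facilitative GLUT proteins. Hexokinases then phosphorylate it to glucose 6-phosphate, which holds it in the cell and opens the way to glycolysis. A rise in ATP relative to ADP closes the KATP channel, an octamer of Kir6 pore subunits and SUR regulatory subunits, and the cell depolarises. The sodium that SGLT1 brings in is returned by the sodium pump. Enteroendocrine L cells are known for releasing glucagon-like peptide-1 in response to luminal glucose.

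The library totals lay between 21399987 and 36488198 counts, and 3 counts, the limit that a count of 0 allows, stood for 0.0822 to 0.14 CPM (counts per 1000000 counts of the library). The limit and all intervals of this kind cover counting error only. The plate 2 columns were not matched to single replicates, so these libraries are called by the rank of their total: lowest, middle and highest. The plate 2 well of middle total (the middle-total library) stood apart. Among 5031 genes averaging 30 CPM or more, 354 lay more than 2-fold below the average of its plate 2 companions and 2 lay more than 2-fold above it, with a median log2 ratio of -0.03. Each of the other 5 libraries, set in the same way against the average of its own plate's other libraries, had 0 to 3 genes below and 0 to 49 above. For the genes described here, calls and directions that changed on leaving out the middle-total library are given with and without it. For the other pathway genes and the cell markers, such changes are given only in part. The enteroendocrine markers (Gcg, Chga, Chgb, Scg2, Pcsk1, Neurod1 and Cck) were above 3 counts in every library for 7 of 7 genes and summed to 5013 to 6892 CPM. The summed level of beta cell markers was 0.0548 to 0.583 CPM, with Ins1 and Ins2 at 0 counts throughout, and that of enterocyte markers 0.25 to 1.46 CPM, with Apob and Fabp2 at 0. The blood cell markers summed to 0.333 to 1.07 CPM and the fibroblast markers to 4.71 to 7.06 CPM, with Col3a1 at 0. The goblet markers summed to 35.1 to 40.6 CPM, nearly all from Tff3.

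Because reads in these libraries come from the 3′ ends of transcripts, counts do not scale with transcript length, and CPM values of different genes were compared directly. The sources used here name no molecular identifiers, and equal capture of different 3′ ends was not tested. The transcript ends on which the counts depend are therefore shown for the genes that carry the results. In the GENCODE M21 annotation on GRCm38, 7 of the 9 genes have a canonical polyadenylation signal (AATAAA or ATTAAA, searched on the transcript strand only) in the last 50 bases of their 3′-most protein-coding transcript, against 72.5% of 21866 protein-coding genes. Slc2a1 and Kcnj11 hold neither letter string in that window. Each stretch below is 30 bases of the last exon's 3′ untranslated region, written 5′ to 3′ on the transcript strand, with the signal in capitals.
Slc5a1, chr5:33162839-33162868, plus strand: tatgttgctaaaAATAAAaacatggaaatt
Slc2a3, chr6:122727825-122727854, minus strand: tttctgttttgaAATAAAacttctgaatgt
Hk2, chr6:82725035-82725064, minus strand: ttaactattattAATAAAttttaacttttt
Abcc8, chr7:46104534-46104563, minus strand: aaatcacttgtaAATAAAgaaattaattct
Slc2a2, chr3:28731326-28731355, plus strand: agtacccatattAATAAAaaaatagttata
Slc2a1, chr4:119137954-119137983, plus strand: cgaaaaaaaaatccctttataaaacctaaa
Kcnj11, chr7:46097096-46097125, minus strand: cctaagacaaacgaaggtgtttctacactg
Those of Slc2a1 and Kcnj11 are the last 30 bases of the transcript, since no signal was found. The Kcnj11 gene extends 3143 bases past that end in a non-coding transcript, and Abcc8, on the same strand, ends 3758 bases before Kcnj11 begins. Slc2a5 (chr4:150119283-150144169, plus strand) and Hk1 (chr10:62268855-62379908, minus strand) also carry the signal. The antisense gene Gm12868 overlaps the 3′ end of Slc2a1, antisense genes also overlap Hk1, Hk2, Slc2a2 and Abcc8, and the sources used here name no strand setting for the counting. In the last 400 bases, 5.41% of the 31-base words of Slc2a2 and 1.62% of those of Hk2 also occur in other genes. Slc2a3, within whose span the processed pseudogene Gm4482 is annotated, was the only one of the 9 with estimated counts more than 0.01 away from a whole number.

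GLUT3 and hexokinase 2 gave the most abundant transcripts of the set, and the transcripts of the KATP subunits gave unequal counts. Those of SGLT1 and GLUT1 stood at similar low levels, and that of GLUT2 was not detected. The mean over the 6 libraries was 136 ± 39.9 CPM for Slc2a3, 110.5 ± 29.3 for Hk2, 54.0 ± 14.7 for Slc2a5, 49.7 ± 7.94 for Hk1, 36.1 ± 9.41 for Abcc8, 10.2 ± 3.30 for Slc5a1, 9.60 ± 2.09 for Slc2a1 and 5.70 ± 1.42 for Kcnj11 (SD, n = 6). Of the 9 genes, 8 had more than 3 counts in every library and only Slc2a2 did not.

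**Figure D1:**
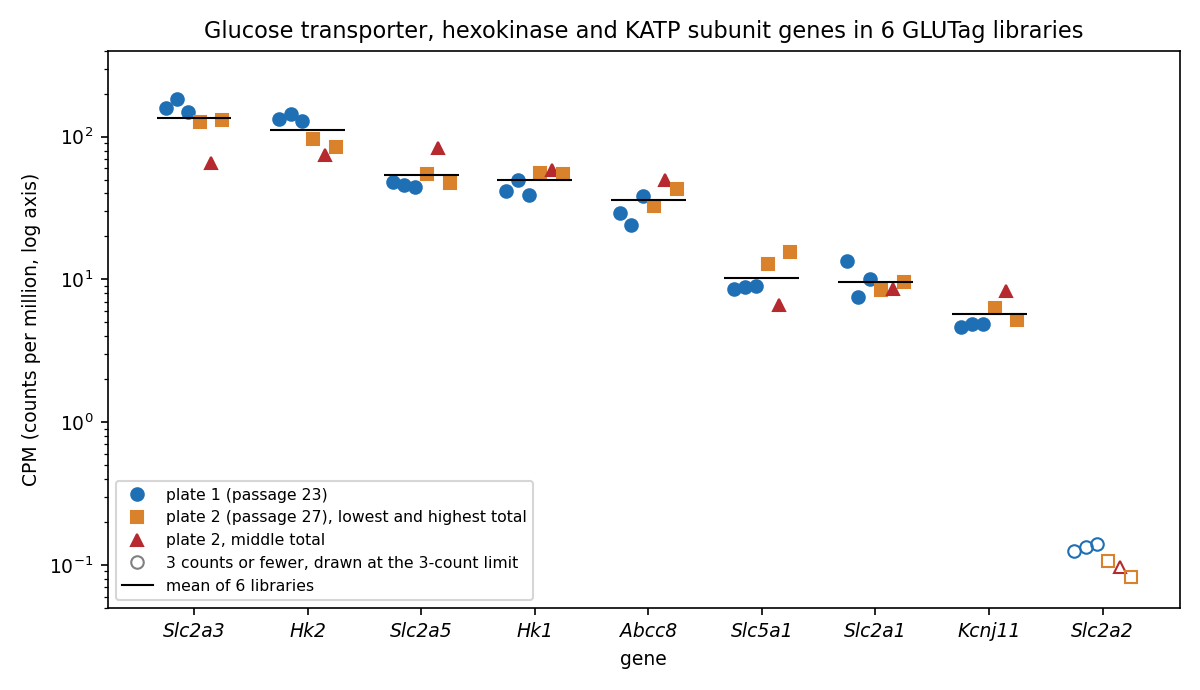
CPM of the 9 genes (log axis) in each of 6 libraries, ordered by mean; circles are plate 1, squares the lowest-total and highest-total libraries of plate 2, triangles the middle-total library, and black lines the means of 6 libraries. Open symbols mark counts of 3 or fewer, drawn at the 3-count limit of the library, so Slc2a2 has open symbols throughout and the other 8 genes none.

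Slc5a1 encodes the transporter that takes up glucose together with sodium. It stood at 8.59, 8.84 and 9.02 CPM in plate 1 replicates 1, 2 and 3, and at 12.8, 6.63 and 15.6 CPM on plate 2 (lowest, middle and highest total, the order used throughout). The plate 1 values lay close together, and the plate 2 values lay on either side of them. Its coefficient of variation (CV, the SD as a share of the mean) was 32.2%, against a median of 22.1% over 2389 genes with a mean within 1.5-fold of its own. Of the other sodium-coupled family members (Slc5a2, Slc5a4a, Slc5a4b, Slc5a9, Slc5a10 and Slc5a11), 0 of 6 exceeded 3 counts in every library. Slc5a4a did so in 5 libraries, with 24, 8 and 22 counts on plate 1 and 25, 1 and 42 on plate 2 (0.743 ± 0.446 CPM, SD, n = 6), the single count being in the middle-total library. Slc5a4b exceeded 3 counts in 4 libraries, with at most 15.

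The facilitative transporters were led by Slc2a3, a high-affinity glucose carrier known best from neurons. It gave 158, 183.5 and 150 CPM on plate 1 and 127.2, 65.9 and 131.2 CPM on plate 2, so that every plate 1 library lay above every plate 2 library. Slc2a5, which carries fructose, gave 48.1, 45.6 and 44.2 CPM on plate 1 and 55.1, 83.1 and 47.7 CPM on plate 2. The middle-total library held the lowest Slc2a3 and the highest Slc2a5 value. Without it the CV fell from 29.3% to 15.1% for Slc2a3, and from 27.3% to 8.74% for Slc2a5. Genes within 1.5-fold of the mean of Slc2a3 had a median CV of 14.6% over all 6 libraries (1159 genes).

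Slc2a1, the widely expressed basal glucose carrier, gave 13.5, 7.56 and 10.0 CPM on plate 1 and 8.40, 8.54 and 9.65 CPM on plate 2, and the plates overlapped. Slc2a2, the low-affinity carrier of liver, beta cells and intestine, had a count of 1 in the lowest-total library of plate 2 and 0 in the other 5. Against the limit of 3 counts per library, in those 5 libraries Slc2a3 was at least 679-fold, Slc2a5 at least 315-fold, Slc5a1 at least 64.3-fold and Slc2a1 at least 57-fold higher than Slc2a2. In the lowest-total library the 236 counts of Slc2a1 gave a ratio of 236 to the single count of Slc2a2, with an exact 95% binomial interval that reached down to 41.9. Of the counts of the 12 facilitative transporter genes listed, Slc2a3 held 61.5 ± 13.3%, Slc2a5 25.6 ± 10.0% and Slc2a1 4.44 ± 0.893% (SD, n = 6). In the middle-total library the share of Slc2a3 was 35.9% and that of Slc2a5 45.3%, and without it the means were 66.6% and 21.6%.

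Among the 8 other facilitative genes, 6 exceeded 3 counts in every library, each at a low level. Slc2a8, an intracellular carrier, had a mean of 6.17 ± 1.40 CPM, Slc2a6 5.66 ± 2.01 CPM, and Slc2a9, a urate carrier, 3.83 ± 1.14 CPM. Slc2a4, the insulin-regulated carrier of muscle and fat, was at 0.867 ± 0.426 CPM, Slc2a13 at 0.799 ± 0.466 CPM and Slc2a12 at 0.688 ± 0.157 CPM (SD, n = 6). Slc2a7 had 0 counts in all libraries and Slc2a10 at most 1.

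The hexokinases phosphorylate glucose once it is inside. Hk2, an inducible isoform known from muscle, fat and tumour cells, gave 133.4, 145.2 and 129.6 CPM on plate 1 and 96.1, 74.7 and 84.1 CPM on plate 2. Hk1, the isoform found in most tissues, gave 41.6, 49.7 and 38.7 CPM on plate 1 and 55.6, 58.2 and 54.5 CPM on plate 2. On this scale, CPM over the total, neither gene's plates overlapped: Hk2 lay lower on plate 2, as did 4.00% of all genes tested without overlap, and Hk1 higher, as did 35.2%. Under the TMM scaling described with the plate comparison the Hk1 values overlapped. The ratio of Hk2 to Hk1 was 3.20, 2.92 and 3.35 on plate 1 and 1.73, 1.28 and 1.54 on plate 2. Hk1 varied no more than its like (CV 16.0%, against a median of 17.7% over 2369 genes), and Hk2 varied more (26.5%, against 15.2% over 1374 genes). Of 7 other genes of hexose phosphorylation and glucose 6-phosphate hydrolysis, 3 exceeded 3 counts in every library. They were G6pc3, the ubiquitous glucose-6-phosphatase, at 34.5 ± 9.47 CPM, the transporter Slc37a4 at 5.99 ± 1.02 CPM and the ketohexokinase Khk at 4.81 ± 0.752 CPM.

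The KATP subunit transcripts detected were those of the beta cell type of channel. Kcnj11, the pore, gave 4.63, 4.86 and 4.86 CPM on plate 1 and 6.27, 8.35 and 5.23 CPM on plate 2. Abcc8, its regulatory partner, gave 29.2, 23.9 and 38.2 CPM on plate 1 and 32.8, 49.6 and 43.2 CPM on plate 2. The ratio of Abcc8 to Kcnj11 was 6.31, 4.93, 7.86, 5.24, 5.94 and 8.25 in the same order, with a mean of 6.42 ± 1.36 (SD, n = 6) and overlapping plates. The channel itself holds equal numbers of the subunits. The ratio here is one of transcript end counts: protein was not measured, and equal capture of the ends of Abcc8 and Kcnj11 was not tested. The alternative subunits Kcnj8 (Kir6.1) and Abcc9 (SUR2), known from vascular muscle and heart, had 0 counts in all 6 libraries. Against 3 counts per library, Kcnj11 was at least 34.7-fold higher than Kcnj8, and Abcc8 at least 181-fold higher than Abcc9.

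**Figure D2:**
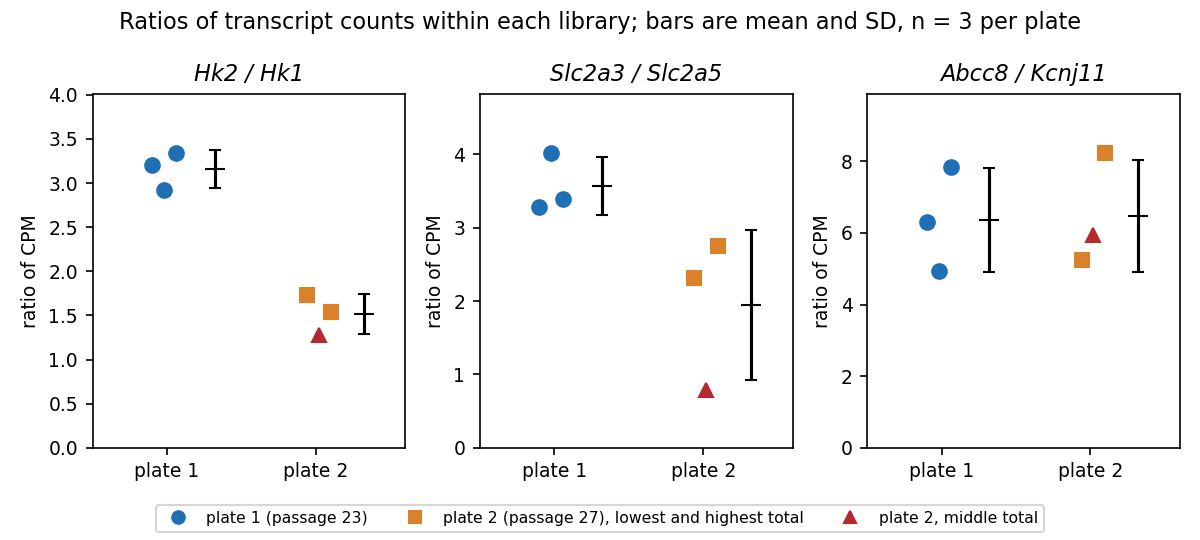
Ratios of CPM within each library for Hk2 to Hk1, Slc2a3 to Slc2a5 and Abcc8 to Kcnj11 by plate (linear axes from 0); points are libraries and black bars the mean and SD of 3 libraries. The ratio of Hk2 to Hk1 was 3.16 ± 0.215 on plate 1 and 1.52 ± 0.224 on plate 2, and that of Abcc8 to Kcnj11 6.36 ± 1.47 and 6.48 ± 1.57.

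The order of the levels was tested within libraries, as log2 of the ratio of CPM + 1, by flipping the signs of the 6 library values in every possible way (an exact permutation test, two-sided). With 6 libraries the smallest p is 0.03125, which 11 of the 15 pairs reached, and it became 0.0426 after Benjamini-Hochberg adjustment over the 15. In 5 of these pairs the second gene was at or under 3 counts (Slc2a2, Kcnj8 or Abcc9), so that those tests show detection of the first gene and no more. Of the remaining pairs, Abcc8 exceeded Kcnj11 by 2.46 ± 0.29 (log2, SD), Hk2 exceeded Hk1 by 1.11 ± 0.59, and Slc2a3 exceeded Slc2a1 by 3.65 ± 0.53, each in 6 of 6 libraries. The 8 neighbouring pairs were picked, with their direction, from the mean levels of these same libraries, so their p-values are not independent support for the order. Among these neighbours, Hk1 exceeded Abcc8 by 0.47 ± 0.36, Abcc8 exceeded Slc5a1 by 1.73 ± 0.55, and Slc2a1 exceeded Kcnj11 by 0.67 ± 0.46, again in 6 of 6.

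For the pairs that remain, the test did not pass. Slc2a3 lay above Hk2 in 5 of 6 libraries (0.27 ± 0.27, range -0.18 to 0.63, exact p = 0.0625, adjusted p = 0.0721). Hk2 lay above Slc2a5 in 5 of 6 (1.01 ± 0.68, range -0.15 to 1.65, exact p = 0.0625, adjusted p = 0.0721). In each of these pairs the exception was the middle-total library, without which the means were 0.36 and 1.25. Slc2a5 lay above Hk1 in 3 of 6 libraries (0.10 ± 0.26, range -0.19 to 0.51, exact p = 0.4375, adjusted p = 0.469). The mean of this pair was 0.01 without the middle-total library and 0.15 without the highest-total library. Slc5a1 lay above Slc2a1 in 3 of 6 (0.06 ± 0.49, range -0.59 to 0.64, exact p = 0.781, also after adjustment), so that the sodium-coupled and the basal facilitative carrier could not be ordered at this spread. Hk2 was second and Abcc8 the fifth in the order of every library.

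The plates were compared to see whether these genes moved with the culture. An edgeR quasi-likelihood fit over 15669 genes, which scales libraries by the trimmed mean of M values (TMM), called 29 genes at an adjusted p under 0.05, or 0.185% of those tested, 27 lower and 2 higher on plate 2. Of the 9 genes described, 8 passed the filter on low counts and 1, Hk2, was called. Their log2 fold changes had a median of 0.12, against 0.03 over all genes tested, with 3 lower and 5 higher. Without the middle-total library the median was -0.10, against 0.01 over all genes, with 5 lower and 3 higher.

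Hk2 fell on plate 2, by 0.95 on the log2 scale (SE 0.13, edgeR adjusted p = 0.0298). Its TMM-scaled values were 146, 164 and 139 CPM on plate 1 and 86.3, 69.2 and 76.6 CPM on plate 2, and the plates did not overlap. Without the middle-total library, a fit in which edgeR called 12.0% of all genes tested, the difference was -0.90 (edgeR adjusted p = 0.000132). On leaving out any of the other 5 libraries it was no longer called by edgeR, at -1.04 to -0.88 with adjusted p of 0.0766 to 0.234. The difference between Hk2 and Hk1 within libraries was 1.63 ± 0.10 on plate 1 and 0.58 ± 0.21 on plate 2 (log2, SD, n = 3), with no overlap. An exact permutation test of 3 against 3 gave p = 0.1, the smallest it can give. Of the 15 pairs, 4 had plates without overlap, among them Hk2 over Slc2a5, at 1.54 ± 0.10 and 0.48 ± 0.55. The others set Kcnj11 against Kcnj8 or Slc2a2, each at or under 3 counts.

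Slc2a3 had a difference of similar size, -0.88 (SE 0.25), that did not pass (edgeR adjusted p = 0.170). Its TMM-scaled values were 172.5, 207 and 160.9 CPM on plate 1 and 114.1, 61.1 and 119.4 CPM on plate 2, again without overlap. Without the middle-total library it was among the 12.0% of genes called, at -0.65 (edgeR adjusted p = 0.00182). Lower values on plate 2 with no overlap were found for 12.0% of all genes tested under TMM scaling and 4.00% under CPM over the total, and Hk2 and Slc2a3 were the 2 members of this kind under each. Among the cell markers, Pcsk1 and Cd68 (6 to 35 counts) lay higher on plate 2 without overlap under both scalings. So did 12.8% of all genes tested under TMM and 35.2% under CPM over the total. Chgb lay higher under CPM over the total only, and Tff3 lower under TMM only. The differences of Pcsk1, Cd68, Tff3 and Chgb were 0.56, 1.00, -0.33 and 0.07 (edgeR adjusted p = 0.135, 0.320, 0.260 and 0.857). Without the middle-total library edgeR called Pcsk1, Tff3, Chga and Cck, at 0.45, -0.44, -0.53 and -0.87, with 12.0% of all genes called. EdgeR also called Pcsk1 without the filter (adjusted p = 0.0169), where it called 2.02% of all genes tested. Without scaling beyond the total it called Pcsk1 too (adjusted p = 0.0278), with 9.32% of all genes called and a median log2 fold change of 0.30 over all genes.

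None of the other 6 genes had an adjusted p under 0.05. At an unadjusted p under 0.05 there were 3 of the 8 (Hk2, Slc2a3 and Slc2a1), against 16.1% of all genes tested. Slc2a1 stood at -0.49 (edgeR adjusted p = 0.307), Slc5a1 at 0.14 (0.862), Slc2a5 at 0.17 (0.744), Hk1 at 0.10 (0.779), Kcnj11 at 0.20 (0.714) and Abcc8 at 0.20 (0.685). Single libraries moved these values: Slc2a1 stood at -0.25 without plate 1 replicate 1, Abcc8 at 0.07 and 0.38 and Hk1 at 0.23 and 0.0096 without plate 1 replicates 2 and 3, and Abcc8 at 0.02, Slc5a1 at 0.38 and Hk1 at 0.03 without the middle-total library. None of these was called. Without scaling beyond the total, where the median of all genes was 0.30, Slc5a1 stood at 0.41, Slc2a5 at 0.43 and Hk1 at 0.37. Under that setting Kcnj11 stood at 0.47, Abcc8 at 0.46 and Slc2a1 at -0.22, again without a call. For Slc2a5 and Kcnj11 the sign turned without the middle-total library, to -0.15 and -0.04, and for Slc5a1 it turned without the highest-total library, to -0.13. Hk1 and Kcnj11 were the 2 genes that lay higher on plate 2 with no overlap under CPM over the total, as did 35.2% of all genes tested. Under TMM scaling, with 12.8% of all genes in that class, neither did.

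**Figure D3:**
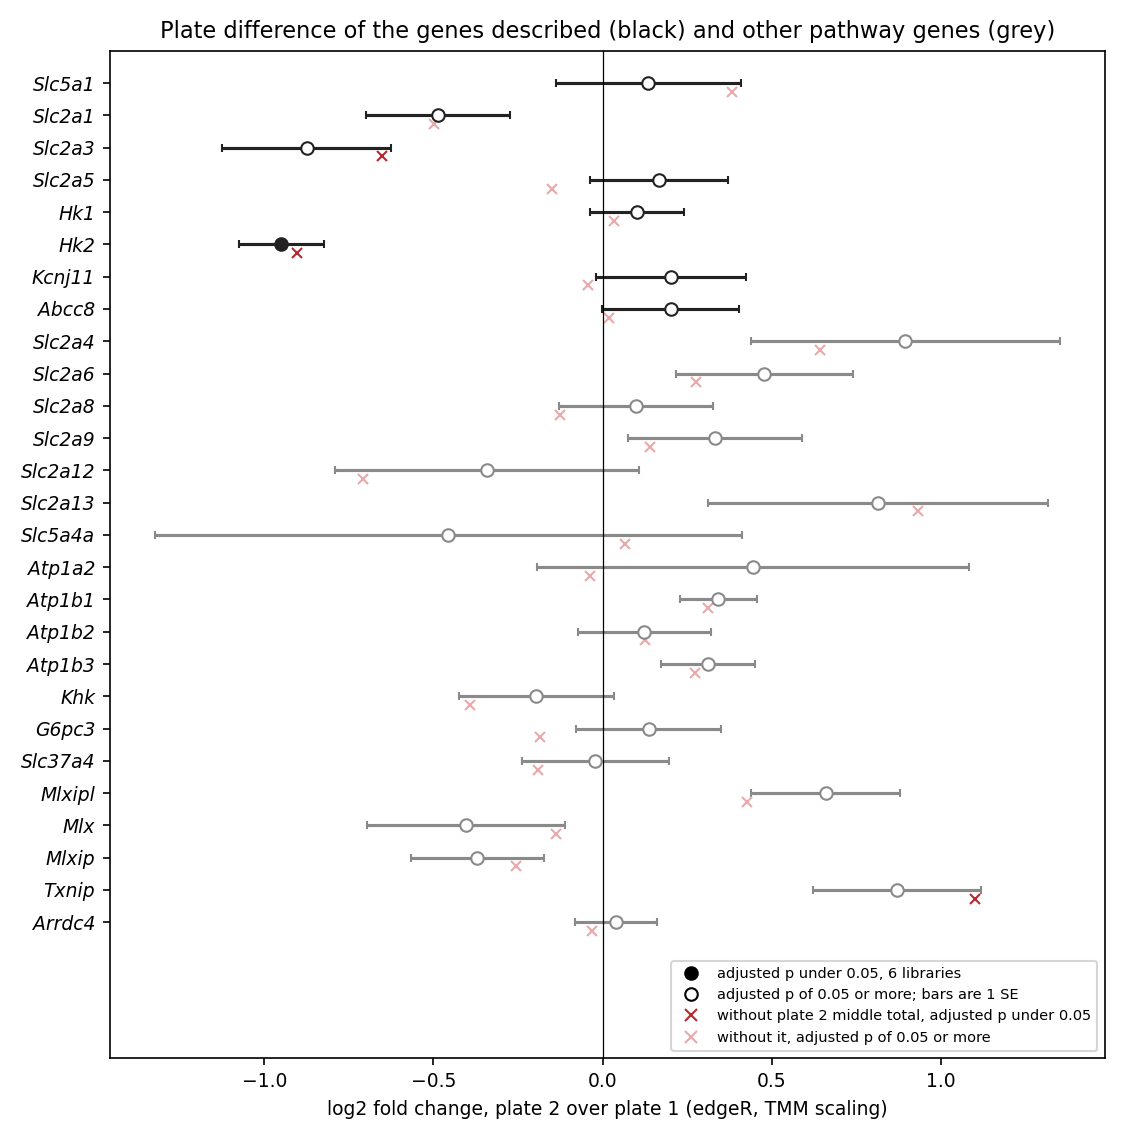
log2 fold change of plate 2 over plate 1 for the 8 genes tested (black) and other pathway genes (grey), from edgeR on 6 libraries; bars are 1 SE, filled circles an adjusted p under 0.05, and crosses the value without the middle-total library (dark red for an adjusted p under 0.05). Hk2 is the only filled circle, and Hk2, Slc2a3 and Txnip are the dark red crosses, in a fit that called 12.0% of all genes tested.

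The other genes of the pathway were described from lists of 32 genes, of which 18 exceeded 3 counts in every library and 19 were tested between plates. None was called by edgeR and 1, Txnip, by DESeq2, which called 1.96% of all genes, while 3 had an unadjusted p under 0.05 (16.1% of all genes tested had), 13 were higher and 6 lower, and the median log2 fold change was 0.14. Without the middle-total library 10 of these 19 genes were higher and 9 lower, with a median of 0.07. Of the sodium pump, 4 of the 4 genes listed exceeded 3 counts in every library, the highest being the beta subunits Atp1b1 at 121 ± 28.5 CPM and Atp1b3 at 66.3 ± 15.9 CPM (SD, n = 6). Their plate differences were 0.34 (edgeR adjusted p = 0.193) and 0.31 (edgeR adjusted p = 0.314), and without scaling beyond the total, where edgeR called 9.32% of all genes tested, each was called, at 0.61 and 0.57 (edgeR adjusted p = 0.0278 and 0.0452).

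The regulators that respond to glucose were all present, 5 of 5. The transcription factors of this group were Mlxipl (ChREBP) at 42.4 ± 17.1 CPM, Mlx at 70.2 ± 17.5 CPM and Mlxip at 9.91 ± 1.62 CPM. The arrestin Arrdc4, one of their known targets, was at 44.9 ± 5.65 CPM. Txnip, another such target and a restrainer of glucose uptake, gave 19.4, 19.8 and 21.7 CPM on plate 1 and 50.7, 26.8 and 56.9 CPM on plate 2, with every plate 2 value above plate 1, as for 35.2% of all genes tested on this scale and 12.8% under TMM, where Txnip also did not overlap. Its difference was 0.87 (edgeR adjusted p = 0.161) and, without the middle-total library, 1.10 (edgeR adjusted p = 5.00e-05, with 12.0% of all genes called). Mlxipl had a difference of 0.66 (edgeR adjusted p = 0.200) and, without the middle-total library, 0.43 (edgeR adjusted p = 0.151). Without a filter on low counts edgeR called 2.02% of all genes, among them Txnip (adjusted p = 0.0279) and Mlxipl (0.0308). Without scaling beyond the total edgeR also called them (adjusted p = 0.0400 and 0.0445), with 9.32% of all genes called.

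The middle-total library was set beside the average of its plate 2 companions for each of the 8 detected genes. Slc5a1 was lower by 1.10 and Slc2a3 by 0.97 (log2 of CPM ratios), and their last 200 transcript bases have the lowest GC contents of the 8, 36% and 37%. Hk2, at 38.5% GC, stood at -0.27 and Slc2a1, at 48.5%, at -0.08. Kcnj11 (45%), Slc2a5 (48.5%), Hk1 (50%) and Abcc8 (52.5%) stood at 0.54, 0.69, 0.08 and 0.38. The part of base composition in these values was not tested.

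**Figure D4:**
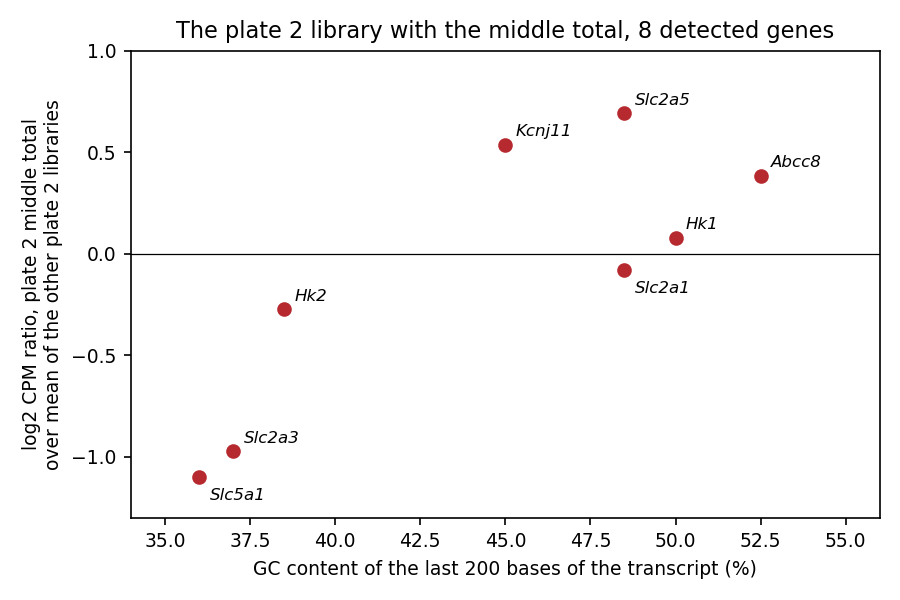
log2 ratio of CPM in the middle-total library to the average of its plate 2 companions (y axis), against the GC content in percent of the last 200 bases of the transcript (x axis), for 8 genes. Slc5a1 and Slc2a3 lie lowest, at -1.10 and -0.97, and Slc2a5 highest, at 0.69.

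The genes whose pattern over the 6 libraries was most like that of Slc5a1 were Xpo4, a nuclear exportin, Impa1, an inositol monophosphatase, and B2m, the light chain of class I antigens. The measure was the root mean square difference of centred log2 TMM-scaled CPM among 8652 genes of at least 10 CPM, and it was 0.039, 0.045 and 0.051, against a median of 0.411 over those genes. For Abcc8 they were Dalrd3, Mfsd10 and Slc38a9, an amino acid transporter of the lysosome, at 0.061, 0.074 and 0.082, against a median of 0.335. These are descriptions over 6 libraries that share 2 plates. The genes named have the smallest of these distances by choice, so their place below the median is not a result.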

How the data were processed

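The table deposited by the authors holds expected counts for each gene. Reads of a forward QuantSeq 3′ library were trimmed (Trim Galore 0.6.4, per the submitters' processing notes) and assigned by Salmon 1.5.1 to GRCm38 transcripts without length correction, then summed per gene. No normalisation had been applied. The plate 1 columns were matched to replicates 1, 2 and 3, and the plate 2 columns only to their plate.

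CPM was the unrounded count over the library total. Expected counts were rounded for edgeR 4.0.16 (R 4.3.3; TMM, filterByExpr, robust quasi-likelihood, Benjamini-Hochberg adjustment over all genes) and DESeq2 1.42.0, the alternative. An SE is the absolute log2 fold change over the square root of F. Symbols came from GENCODE M21, which held 54107 of the 54281 identifiers, an earlier release of the same build than the authors used. The fit was tested on simulated counts for this comparison (15637 genes tested on average over 5 draws, 200 changed, dispersion 0.05): edgeR recovered 54.2% of 2-fold and 98.4% of 4-fold changes, with 4.58% of calls false, and 8.89% of DESeq2 calls were false. The simulated counts had the same dispersion for every gene and no library that stood apart. These rates therefore need not hold for the real plates, where the middle-total library stood apart. Genes named are all 9 described, the listed pathway genes above 3 counts in every library, and the 3 most like Slc5a1 and Abcc8. The members and lists were chosen with earlier results of these data known. Alternatives were another scaling, tool, pseudocount (0.1 or 5 CPM instead of 1) or filter, and leaving out each library. Some listed genes are not reported here.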

Additional observations from a re-analysis of the deposited data

Results flagged for a closer look

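Of 35 values examined in the 6 libraries (levels and ratios of the genes described and of the other pathway genes), 5 had a sample far from the others by Dixon's ratio, the gap to the nearest library over the whole range, and chance gives about 1 in 20. In all 5 that sample was the middle-total library of plate 2. Slc2a5 was highest there, at 83.1 CPM with the next at 55.1 (ratio 0.719, mean 54.0 and 48.1 without it). G6pc3 was highest there, at 52.9 CPM with the next at 33.9 (ratio 0.690, mean 34.5 and 30.8 without it). Mlx was lowest there, at 36.0 CPM with the next at 71.1 (ratio 0.726, mean 70.2 and 77.1 without it). The share of Slc2a3 among facilitative transporter counts was lowest, at 35.9% with the next at 60.1% (ratio 0.643), and that of Slc2a5 highest, at 45.3% with the next at 26.0% (ratio 0.713).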

How the results depend on the processing

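The number of genes called between plates was 29 (2 higher, 27 lower on plate 2) and changed with most choices: 1461 without scaling beyond the total (1390 higher, 71 lower, where the median log2 fold change of all genes was 0.30 and not 0.03), 529 with DESeq2 (130 higher, 399 lower), 545 without a filter on low counts (255 higher, 290 lower) and 29 with at least 10 counts in every library. Leaving out each library in turn gave 0 to 1911 calls by edgeR: 0 without plate 1 replicate 1 (1611 genes at an unadjusted p under 0.05) and without the lowest-total library of plate 2 (2121 at that p), 2 and 6 without plate 1 replicates 2 and 3, 9 without the highest total and 1911 without the middle total. The difference of Hk2 ranged from -1.04 to -0.88 on leaving out 1 library. It was -0.68 without scaling beyond the total (edgeR adjusted p = 0.0278). DESeq2 called Hk2 (adjusted p = 1.64e-06), Slc2a3 (0.0110) and Txnip (0.0278). The levels moved by -13.5% to 5.53% under other scalings. Leaving out 1 of 6 libraries cannot move a mean by as much as 1 SD of the 6 values. A limit of 1 SD therefore could not test how far the levels depend on single libraries. Of 80 repeats of the plate differences of the 8 genes, 2 gained a call (Slc2a3), 5 lost it (Hk2) and 3 turned in sign without being called: Slc5a1 without the highest-total library (range without 1 library -0.13 to 0.38), and Slc2a5 (-0.15 to 0.33) and Kcnj11 (-0.044 to 0.35) without the middle-total library. The difference of Slc5a1 from Slc2a1 turned to -0.042 and -0.059 without the lowest-total and highest-total libraries, and ranged up to 0.19. The other within-library differences kept their sign under every alternative. For the 11 pairs with 1 direction in every library, no alternative could turn it. Another pseudocount or scaling does not change which gene of a pair is higher in a library. All 15 pairs therefore had to keep their side of the threshold under those settings. Leaving out 1 library gave values without a test, since 5 libraries cannot go below an exact p of 0.0625. No paired analysis was possible because the sample labels number the 6 replicates without repeats, and the numbers that restart in the plate 2 column names identify no sample.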
